A study of Mus musculus with 8 samples.

Results

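The set described here is a window of mouse chromosome 4 from 85 Mb up to 110 Mb (genome build mm9) that holds Dmrtb1, the gene disrupted in the mutant animals. Its members are all genes of the expression table that start in the window, except Tek, Jun and genes whose symbols begin with Dmrt, Zfp, Rps or Rpl. That rule gave 196 of the 22744 genes in the table and left out 6 (Tek, Rps6, Dmrtb1, Dmrta1, Dmrta2 and Jun). The window was picked after differences between the same libraries had been seen, so the differences of its members are given as descriptions, and no test is offered in their support. Of the 196 members, 73 carry a predicted-gene or RIKEN clone name and 4 have no symbol in the table. By strand, 93 lie on the plus strand and 103 on the minus strand.

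RNA was sequenced from whole testes of Dmrt6 null mice at postnatal day 8 (3 libraries) and of wild-type mice at postnatal day 8 (3 libraries). Dmrt6 is the older name of Dmrtb1. All 6 libraries carry the strain label C57BL/6, and the libraries of each genotype are described as biological replicates. Chromatin immunoprecipitation followed by sequencing (ChIP-seq) was done once with rabbit polyclonal antibodies to DMRT6, beside 1 input library, on wild-type adult testis with the strain label C57BL/6, Mixed. How the null allele was built, and in which strain, is not given in the sources used here, nor is the number of animals behind a library.

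DMRT6 is a transcription factor with a DM domain, a zinc-binding DNA-binding fold shared with the sex-determining factors Doublesex of flies and MAB-3 of worms. In the mouse testis it is made in spermatogonia, the mitotic germ cells, around the time they turn toward meiosis. The neighbours of a disrupted gene form a natural point of comparison for a mutant line. They share its chromosome, and some may hold binding sites of the factor itself. Those close to the gene tend to be inherited with it when the line is bred. The genes of the window have no common function. They include enzymes of lipid metabolism, small GTPases and other traffic proteins, growth-factor and cytokine receptors, cell-cycle inhibitors, RNA-binding proteins and a cluster of CYP2J cytochromes P450.

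RefSeq promoter windows, from 250 bases before to 50 bases after an annotated start, were matched for 108 members. They were searched on both strands for ACATTGT, the core of the element that DMRT proteins bind, whose reverse complement is ACAATGT. The core was present in 2 of the 108 members (1.85%), Fggy and Elavl4, against 922 of 27018 genes in the whole table of promoters (3.41%). The windows below are shown for Rab3b and Slc24a2, which had the most negative differences between null and wild-type testes, for Cachd1, which had the most positive one, for Haus6, which had the highest-scored DMRT6 peak at a member's 5' end, and for Elavl4, which has a peak at its 5' end and the motif. All are from GRCm38.p6, on chromosome 4, and are written 5' to 3' on the gene's own strand. Capitals mark the motif, which in these windows stands in the Elavl4 sequence alone. A match of letters is a description of the sequence and does not show binding.

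Rab3b, chr4:108878820-108879119, plus strand: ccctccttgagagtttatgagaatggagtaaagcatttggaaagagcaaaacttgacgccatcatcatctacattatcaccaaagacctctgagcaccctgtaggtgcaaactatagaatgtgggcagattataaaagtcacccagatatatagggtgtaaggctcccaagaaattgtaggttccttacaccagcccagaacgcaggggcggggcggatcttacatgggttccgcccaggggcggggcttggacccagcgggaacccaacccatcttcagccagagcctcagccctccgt
Slc24a2, chr4:87230491-87230790, minus strand: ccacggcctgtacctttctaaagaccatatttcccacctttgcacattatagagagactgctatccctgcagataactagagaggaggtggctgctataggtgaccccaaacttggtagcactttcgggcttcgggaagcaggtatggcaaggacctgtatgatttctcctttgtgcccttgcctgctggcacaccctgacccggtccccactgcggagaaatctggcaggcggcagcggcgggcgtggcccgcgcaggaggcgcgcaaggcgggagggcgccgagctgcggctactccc
Cachd1, chr4:100776429-100776728, plus strand: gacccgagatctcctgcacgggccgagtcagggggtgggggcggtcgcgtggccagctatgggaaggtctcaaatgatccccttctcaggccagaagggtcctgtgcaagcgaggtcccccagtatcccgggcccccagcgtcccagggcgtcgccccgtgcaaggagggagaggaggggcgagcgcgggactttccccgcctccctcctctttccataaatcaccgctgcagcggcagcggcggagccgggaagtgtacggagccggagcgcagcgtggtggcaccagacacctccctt
Haus6, chr4:86612006-86612305, minus strand: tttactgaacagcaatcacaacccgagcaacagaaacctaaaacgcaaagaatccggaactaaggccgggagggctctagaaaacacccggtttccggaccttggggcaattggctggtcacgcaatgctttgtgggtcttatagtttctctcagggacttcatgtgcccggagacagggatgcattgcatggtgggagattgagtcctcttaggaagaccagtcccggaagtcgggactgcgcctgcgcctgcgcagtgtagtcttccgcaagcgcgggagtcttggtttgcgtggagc
Elavl4, chr4:110351862-110352161, minus strand: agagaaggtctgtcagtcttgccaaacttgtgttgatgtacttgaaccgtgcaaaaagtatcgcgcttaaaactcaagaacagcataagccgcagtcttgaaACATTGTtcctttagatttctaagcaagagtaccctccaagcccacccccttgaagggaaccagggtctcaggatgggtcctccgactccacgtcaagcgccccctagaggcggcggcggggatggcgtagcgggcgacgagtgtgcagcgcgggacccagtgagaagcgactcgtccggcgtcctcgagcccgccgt

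The GC content of these windows was 51.7% for Rab3b, 60.0% for Slc24a2, 68.3% for Cachd1, 55.0% for Haus6 and 57.0% for Elavl4. They held 8, 17, 25, 17 and 23 CpG dinucleotides in the same order of genes. RefSeq lists 2 starts for Slc24a2 and 4 for Elavl4, and the sequence shown is that of 1 start.

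Gene and peak coordinates from here on are those of chromosome 4 in mm9. Dmrtb1 itself, at 107348895 to 107356835 on the minus strand, had 0.542, 0.915 and 1.02 CPM (reads scaled to the size of the library) in null replicates 1, 2 and 3, against 8.15, 17.4 and 9.26 CPM in wild-type replicates 1, 2 and 3. All null libraries were below all wild-type libraries. The difference, null minus wild type on the log2 CPM scale, was -3.78 (standard error (SE) 0.36, limma adjusted p = 0.0516), and without null replicate 3 it was -3.96 (limma adjusted p = 0.0182). With any of the other 5 libraries left out, the limma adjusted p lay between 0.133 and 0.289. The table held 26.2, 27.4 and 26.3 M reads for null replicates 1 to 3 and 23.8, 29.0 and 27.5 M for wild-type replicates 1 to 3, so that 3 reads, the limit that a count of 0 allows, correspond to between 0.103 and 0.126 CPM. These limits cover counting error only. Null replicate 3 stood apart from the other libraries. On the first principal component, with 44.8% of the variance, it lay at 54.3 and the others between -20.2 and 1.68. Testis markers were present in all libraries. Summed levels of 8 spermatogonial markers were 1369 to 1524 CPM in null and 1294 to 1447 CPM in wild-type libraries. Those of 8 Sertoli cell markers were 907 to 1489 CPM in null and 1084 to 1124 CPM in wild-type libraries. In both lists 6 markers were higher and 2 lower in null testes. All 5 red blood cell markers were lower in null testes, with a median difference of -0.66 log2 CPM. Their sums did not overlap, at 717 to 1255 CPM in null and 1477 to 1776 CPM in wild-type libraries. In whole testes, fewer cells of a type and less RNA per cell cannot be told apart.

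A mean of at least 0 log2 CPM over the 6 libraries was reached by 131 members, and these were fitted together with the other genes of the table that passed (16634 in all). No member passed the limma test at an adjusted p under 0.05, and over the table as a whole, 1 gene did (0.00601%). That gene, Gm5859, also lies on chromosome 4, at 42107582, but far outside the window. It had 229, 269 and 154 reads in null and 9, 7 and 9 reads in wild-type libraries, a difference of 4.65 (SE 0.30, limma adjusted p = 0.00458). At an unadjusted p under 0.05, 6 members were higher in null testes (4.58% of 131, against 1.63% of all tested genes) and 11 were lower (8.40%, against 1.85%). Counted without any model, all null libraries were above all wild-type libraries for 9 members (6.87%, against 5.06% of all tested genes) and below them for 19 (14.5%, against 6.02%). Because the window was chosen from this contrast, nothing is read from these shares. The limma test of voom-weighted recovered reads likewise called 0 members at the adjusted threshold. It called 17 at the unadjusted one, when 3.36% of all tested genes passed.

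As a group the members were centred close to the other genes. Their median difference was -0.06 log2 CPM, with 57 members above 0 and 74 below, against a median of 0.01 over all tested genes. The median size of a difference, without its sign, was 0.173 log2 CPM in members, 0.165 on the rest of chromosome 4 and 0.154 in all tested genes. By chromosome, that median ran from 0.132 on chromosome 18 to 0.171 on chromosome 7. A difference of at least 0.5 log2 CPM in either direction was found for 13 members (9.92%), against 7.59% of tested genes elsewhere on chromosome 4 and 5.99% of all tested genes. The median SE was 0.160 in members and 0.170 in all tested genes, so that the median size of a difference was close to the median SE in both. These are separate medians, and the ratio of each difference to its own SE was not summarised.

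**Figure D1:**
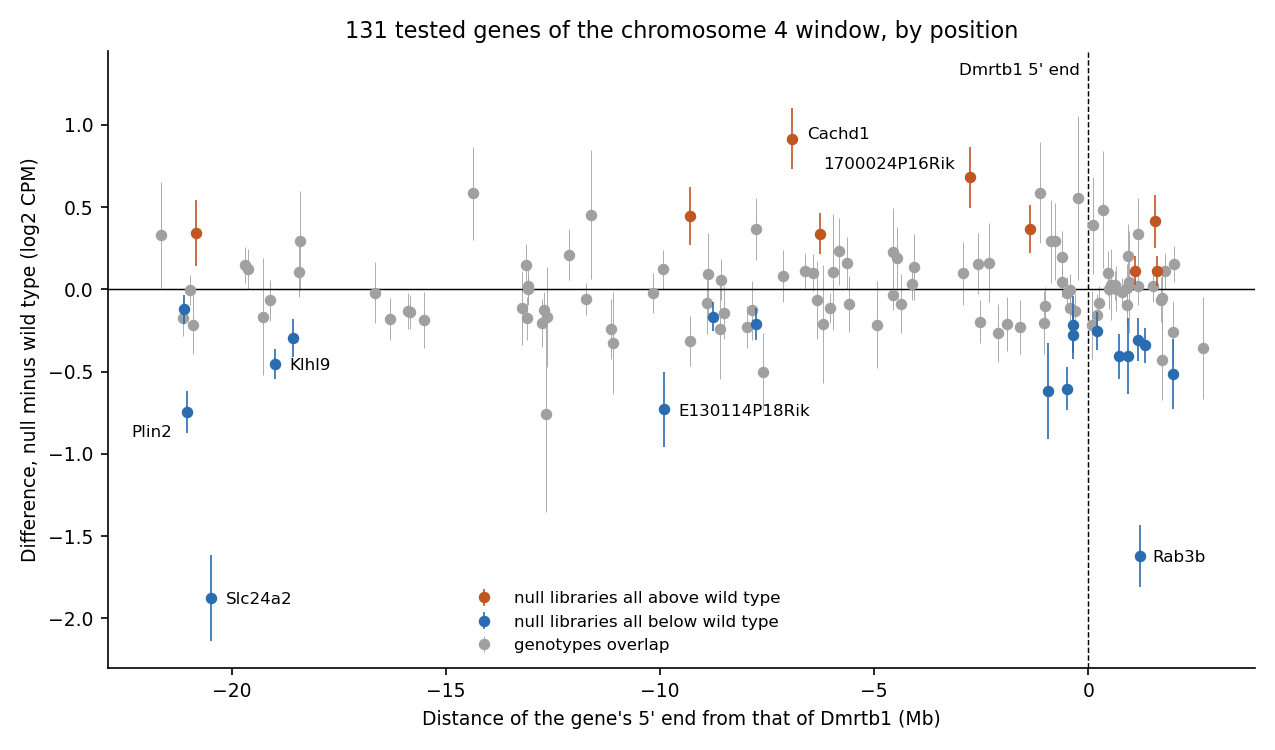
Difference between Dmrt6 null and wild-type testes (log2 CPM, vertical axis) for each of the 131 tested members against the distance of its 5' end from that of Dmrtb1 in Mb (horizontal axis, plus strand to the right). Points are differences of the means of 3 libraries each, bars are ± 1 SE from limma, and colour marks members whose genotypes do not overlap. Slc24a2, at -1.88, lies at the far left end and Rab3b, at -1.62, to the right of Dmrtb1, while most members between them stay near 0.

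The most negative difference was that of Slc24a2, a sodium/calcium-potassium exchanger known mainly from neurons and retina. It lies at 86629028 to 86876381 on the minus strand. Slc24a2 had 3.36, 2.94 and 1.95 CPM in null replicates 1 to 3 (88, 81 and 50 reads), against 8.07, 10.0 and 11.8 CPM in wild-type replicates 1 to 3 (192, 293 and 323 reads). The null libraries were all low and the wild-type libraries all high, with no overlap, and null replicate 3 was the lowest. The mean was 1.42 ± 0.41 log2 CPM in null and 3.30 ± 0.27 log2 CPM in wild-type testes (SD, n = 3 each). The difference was -1.88 (SE 0.26), or 0.273 of the wild-type level on the linear scale, and it was -1.65 without null replicate 3.

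Rab3b encodes a small GTPase of regulated exocytosis, found on secretory and synaptic vesicles. It lies at 108551668 to 108615929 on the plus strand. Rab3b had 5.41, 4.79 and 3.74 CPM in null replicates 1 to 3 (142, 132 and 96 reads), against 15.4, 13.6 and 13.3 CPM in wild-type replicates 1 to 3 (368, 399 and 366 reads). The genotypes did not overlap, and the wild-type libraries lay close together. The mean was 2.20 ± 0.27 log2 CPM in null and 3.82 ± 0.11 log2 CPM in wild-type testes (SD, n = 3 each), a difference of -1.62 (SE 0.19) or 0.325 of the wild-type level. The limma adjusted p was 0.112 with all libraries. Without null replicate 3 the difference was -1.47 and the limma adjusted p was 0.0391. With each of the other libraries left out in turn, the limma adjusted p lay between 0.324 and 0.880. Rab3b was the only member to pass the adjusted threshold in any fit that left out 1 library. Because the window was chosen from this contrast, nothing is read from these values.

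Plin2 encodes perilipin 2, a protein that coats lipid droplets. Plin2 had 41.0, 40.8 and 34.1 CPM in null replicates 1 to 3, against 66.5, 57.1 and 70.8 CPM in wild-type replicates 1 to 3. All null libraries were below all wild-type libraries. The difference was -0.75 (SE 0.13), or 0.596 of the wild-type level, and -0.66 without null replicate 3. Markers of cell types that can hold lipid droplets stood on both sides of 0, with the median above 0 for Sertoli cells and below 0 for the other types given here. Of the 8 Sertoli cell markers, 6 were above 0, with a median difference of 0.12. The summed level of 6 Leydig cell markers was 450 to 616 CPM in null and 472 to 729 CPM in wild-type libraries. Of the 6, 4 were lower in null testes, and the median difference was -0.28. The 6 macrophage and leukocyte markers in the table summed to 71.8 to 97.6 CPM in null and 82.8 to 124 CPM in wild-type libraries. All 6 were lower in null testes, with a median difference of -0.28. The 6 adipocyte markers summed to 166 to 186 CPM in null and 187 to 347 CPM in wild-type libraries. Of the 5 tested adipocyte markers, 4 were lower in null testes, with a median difference of -0.41. None of these markers was at 0 in all libraries or passed the limma test, and their part in the Plin2 values was not tested.

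Klhl9 encodes a substrate adaptor of the CUL3 ubiquitin ligase that acts in mitosis. Klhl9 had 119, 115 and 107 CPM in null replicates 1 to 3, against 147, 159 and 160 CPM in wild-type replicates 1 to 3. The genotypes did not overlap, and the spread within each was small. The difference was -0.45 (SE 0.09), or 0.730 of the wild-type level, and -0.41 without null replicate 3.

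Other members with lower values in null testes and no overlap included Gpx7, a peroxidase of the endoplasmic reticulum, and Mtap, an enzyme of methionine salvage. Gpx7 had 26.5, 25.7 and 22.1 CPM in null and 32.5, 29.4 and 36.7 CPM in wild-type libraries, a difference of -0.41 (SE 0.14). Mtap had 54.4, 54.6 and 45.9 CPM in null and 63.3, 67.9 and 58.6 CPM in wild-type libraries, a difference of -0.30 (SE 0.12). In both genes the third null library was the lowest of the 6. The difference of Mtap was -0.21 and that of Gpx7 was -0.33 without that library. The predicted transcript 9630013D21Rik had 72, 71 and 66 reads in null and 97, 90 and 116 reads in wild-type libraries, a difference of -0.52 (SE 0.21).

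For 3 further members the value may include reads of a gene on the opposite strand, because the coordinates overlap and the use of strand in counting is not given in the sources used here. 2210012G02Rik, whose later symbol is Tceanc2, overlaps Tmem59. 2210012G02Rik had 17.5, 21.0 and 17.1 CPM in null and 28.0, 27.7 and 28.5 CPM in wild-type libraries, a difference of -0.60 (SE 0.13), while the difference of Tmem59 was -0.02. E130114P18Rik overlaps Nfia, a transcription factor gene. E130114P18Rik had 12.4, 9.18 and 6.80 CPM in null and 15.3, 13.9 and 16.6 CPM in wild-type libraries, a difference of -0.73 (SE 0.23), while that of Nfia was 0.12. Nrd1, which encodes the metalloprotease nardilysin, overlaps Osbpl9, a gene of a lipid-transfer protein. Nrd1 had 240, 197 and 195 CPM in null and 267, 251 and 278 CPM in wild-type libraries, a difference of -0.34 (SE 0.11), while that of Osbpl9 was 0.02. In each of these pairs it was the partner whose genotypes overlapped.

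The highest difference was that of Cachd1, which encodes a membrane protein related to auxiliary subunits of voltage-gated calcium channels. It lies at 100449280 to 100701825 on the plus strand. Cachd1 had 15.2, 14.9 and 20.9 CPM in null replicates 1 to 3 (399, 410 and 539 reads), against 8.91, 7.87 and 10.0 CPM in wild-type replicates 1 to 3 (212, 230 and 275 reads). All null libraries were above all wild-type libraries, and null replicate 3 was the highest. The mean was 4.07 ± 0.28 log2 CPM in null and 3.15 ± 0.17 log2 CPM in wild-type testes (SD, n = 3 each). The difference was 0.92 (SE 0.19), or 1.89 times the wild-type level, and 0.76 without null replicate 3.

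1700024P16Rik, now named Fyb2, had 9.10, 8.56 and 7.50 CPM in null and 5.13, 6.06 and 4.56 CPM in wild-type libraries. It encodes an adaptor protein known from T cells. The genotypes did not overlap, and the difference was 0.68 (SE 0.19). Calr4, a member of the calreticulin family of endoplasmic reticulum chaperones, had 15.7, 12.5 and 12.5 CPM in null and 9.37, 10.1 and 11.1 CPM in wild-type libraries, a difference of 0.41 (SE 0.16). Ak4, a mitochondrial adenylate kinase, had 51.8, 50.3 and 54.3 CPM in null and 39.7, 47.8 and 37.0 CPM in wild-type libraries, a difference of 0.34 (SE 0.12). These 3 genes were as high, or nearly so, without null replicate 3, at 0.76, 0.47 and 0.31. For Usp24, a deubiquitinating enzyme, and for Inadl, now Patj, a scaffold of tight junctions, the third null library was the highest of the 6. Usp24 had 193, 195 and 268 CPM in null and 152, 178 and 174 CPM in wild-type libraries, a difference of 0.37 (SE 0.14) that was 0.21 without that library. Inadl had 30.0, 27.4 and 37.7 CPM in null and 25.8, 25.2 and 18.9 CPM in wild-type libraries, a difference of 0.45 (SE 0.18) that was 0.31 without that library. In both genes the genotypes did not overlap.

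**Figure D2:**
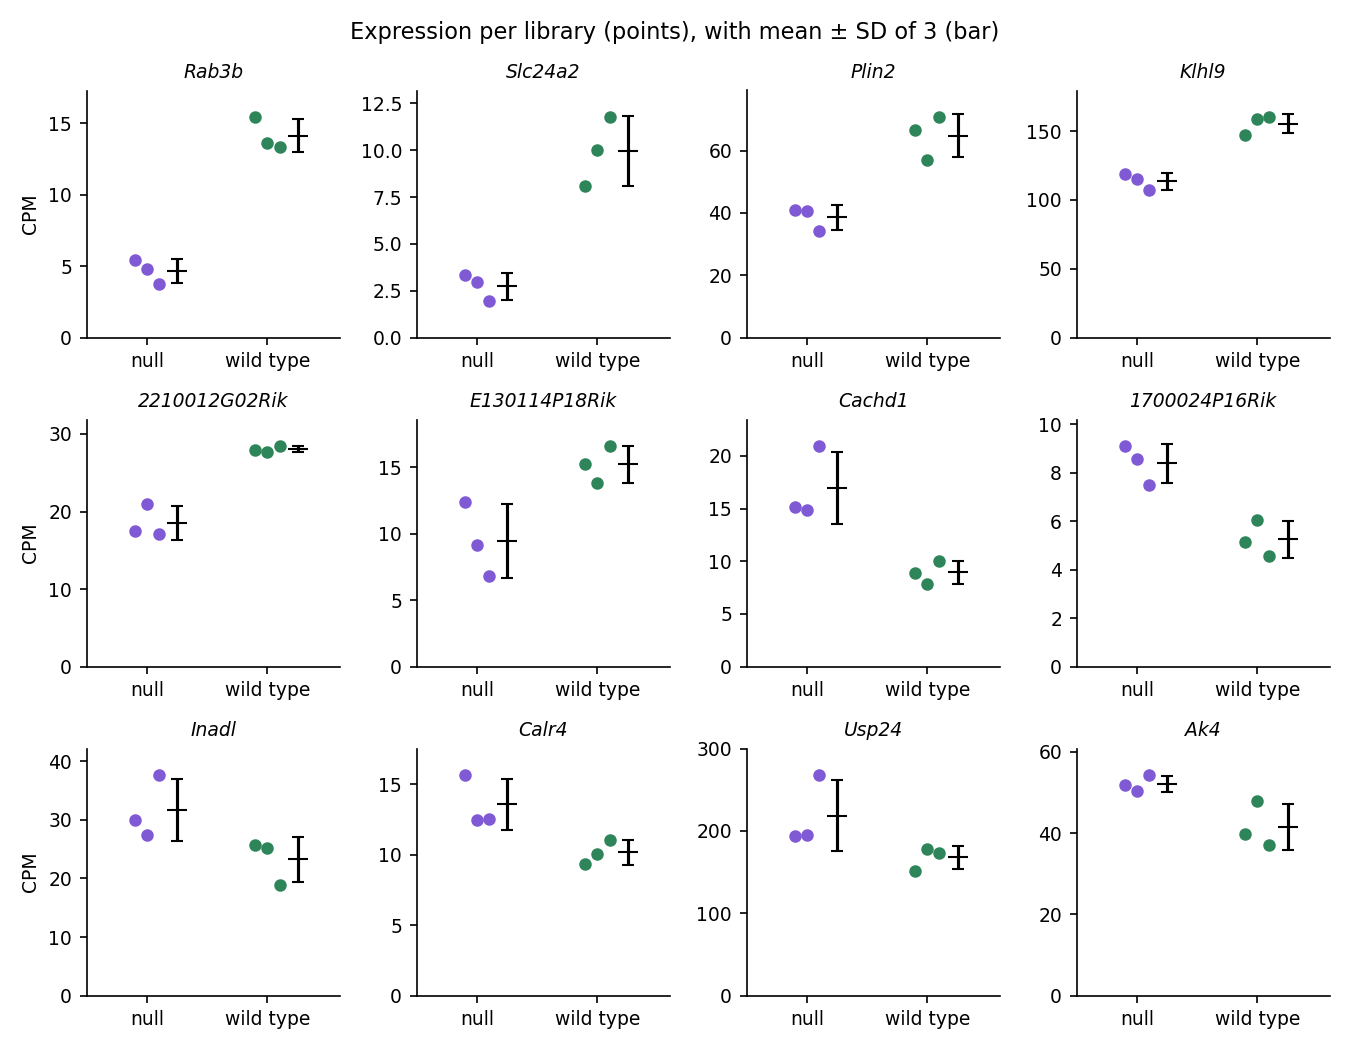
Expression of 12 members in each library (CPM, linear axes from 0), null on the left and wild type on the right of each panel. Points are libraries and the bar beside them is the mean ± SD of 3. Rab3b, at 3.74 to 5.41 CPM in null and 13.3 to 15.4 CPM in wild-type libraries, has null libraries far below wild type relative to its level, as has Slc24a2, and in Cachd1 and Usp24 the highest point is null replicate 3.

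The differences of several members rested on null replicate 3. That library was the highest or the lowest of the 6 for 71.0% of the tested members, close to its share over all tested genes of 68.6%, and it was the lowest for 46.6% of members against 34.0% of all tested genes. Glis1, a zinc-finger transcription factor gene next to Dmrtb1, had 2.98, 2.91 and 10.7 CPM in null and 3.37, 3.84 and 2.27 CPM in wild-type libraries. Its difference was 0.55 (SE 0.50) with null replicate 3 and -0.07 without it. Lrp8, the receptor for apolipoprotein E and reelin that also takes up selenoprotein P in the testis, had 30.7, 19.7 and 45.3 CPM in null and 18.2, 24.3 and 27.5 CPM in wild-type libraries, a difference of 0.39 (SE 0.29), or 0.10 without that library. In both genes the genotypes overlapped.

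By role, the lists of window genes held members on both sides of 0, and no member of any list passed the limma test. Of 10 lipid and sterol genes in the window, 9 were tested, 6 above and 3 below 0, with a median difference of 0.02 log2 CPM, against 0.01 over all tested genes. Beside Plin2 and Lrp8, they included Ppap2b, a lipid phosphatase, at -0.20 (SE 0.13), or -0.08 without null replicate 1, and Cpt2, which brings fatty acids into mitochondria, at -0.08 (SE 0.10). The 12 genes of vesicle traffic, the cytoskeleton and cilia had a median of -0.03, with 5 above and 7 below 0. Outside Rab3b and Inadl, the differences of that list lay between -0.21 for Sgip1, an endocytic adaptor, and 0.23 for Wdr78, a cilium gene. Rraga, a GTPase of amino acid sensing, was at -0.17 (SE 0.11), or -0.08 without null replicate 3.

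Receptors and signalling genes had 10 tested of 11 in the window, 7 above and 3 below 0, with a median of 0.10. Ror1, a receptor tyrosine kinase of the Wnt pathway, had 6.47, 8.27 and 10.5 CPM in null and 14.9, 10.8 and 9.92 CPM in wild-type libraries. Its genotypes overlapped, with null replicate 3 the highest of the null libraries, and the difference was -0.50 (SE 0.24), or -0.67 without that library. Jak1, the cytokine receptor kinase, was at 0.10 (SE 0.11), Lepr, the leptin receptor, at 0.10 (SE 0.35) and Leprot, which shares part of the Lepr locus and lowers its surface level, at -0.11 (SE 0.09). Only 2 of 4 transport genes were tested, Slc24a2 and Slc35d1, a carrier of nucleotide sugars at 0.19 (SE 0.19), or 0.02 without wild-type replicate 1.

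The 7 cell-cycle and DNA repair genes had a median of 0.01, with 4 above and 3 below 0. Cdkn2a, Cdkn2b and Cdkn2c, inhibitors of the kinases that start the cell cycle, were at 0.11 (SE 0.15), 0.30 (SE 0.30) and -0.26 (SE 0.19). The value of Cdkn2c was -0.05 without null replicate 2, the lowest null library, at 16.6 CPM. Itgb3bp, a centromere protein also named CENP-R, was at 0.37 (SE 0.19), or 0.21 without null replicate 2. Its coordinates overlap Efcab7 and Pgm2 on the opposite strand, so its value may include reads of these genes, which were at -0.13 and -0.21. Haus6, a subunit of the augmin complex of the mitotic spindle, had 77.2, 78.0 and 78.0 CPM in null and 86.7, 84.8 and 82.2 CPM in wild-type libraries, without overlap. Its difference was small, at -0.12 (SE 0.09). Usp1, a deubiquitinase of DNA repair, had 116, 108 and 117 CPM in null and 129, 133 and 121 CPM in wild-type libraries, also without overlap, and a difference of -0.17 (SE 0.09).

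Among 13 tested genes of transcription and RNA binding of 14 in the window, 5 were above and 8 below 0, with a median of -0.04. Magoh, a core component of the exon junction complex, had 75.4, 81.9 and 65.9 CPM in null and 82.9, 86.2 and 96.0 CPM in wild-type libraries, a difference of -0.25 (SE 0.12). Btf3l4, related to a basal transcription factor, had 96.2, 100 and 74.3 CPM in null and 118, 106 and 108 CPM in wild-type libraries, a difference of -0.31 (SE 0.13). Neither gene's genotypes overlapped. Elavl2, an RNA-binding protein present in germ cells as well as neurons, was at -0.18 (SE 0.13), Ssbp3 at 0.29 (SE 0.24) and Elavl4 at -0.36 (SE 0.31). Without null replicate 3, Magoh was at -0.17, Btf3l4 at -0.17, Ssbp3 at 0.0068 and Elavl4 at -0.15. Of 6 mitochondrial genes, 4 were above and 2 below 0, with Mrpl37, a mitochondrial ribosomal protein, at 0.04 (SE 0.09) and Oma1, a mitochondrial stress protease, at -0.09 (SE 0.18).

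Of 4 germ cell and sperm genes in the window, 2 were tested. Tmem48, now Ndc1, a nuclear pore membrane protein whose loss impairs meiosis in mice, had 94.5, 103 and 89.5 CPM in null and 112, 100 and 102 CPM in wild-type libraries. Its genotypes overlapped and the difference was -0.13 (SE 0.10), and that of Zyg11a was 0.03 (SE 0.22). The ubiquitin and autophagy list had 9 tested of 10, 5 above and 4 below 0, with Faf1, a ubiquitin-binding protein, at 0.15 (SE 0.11).

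The CYP2J cluster had 5 genes in the window, of which 3 were tested, with a median difference of -0.24. These genes encode cytochromes P450 that oxidise arachidonic acid and xenobiotics, and their sequences are alike, so that reads may have been shared among them. Cyp2j13 had 28, 81 and 34 reads in null and 25, 34 and 36 reads in wild-type libraries, with null replicate 2 alone high. Cyp2j11 and Cyp2j5, both below the level filter, had 16, 39 and 2 reads and 10, 19 and 0 reads in null libraries, against 5, 3 and 0 reads and 4, 0 and 0 reads in wild-type libraries. Cyp2j6 had 24.5, 26.5 and 17.8 CPM in null and 30.3, 26.8 and 23.4 CPM in wild-type libraries, a difference of -0.24 (SE 0.18), or -0.07 without null replicate 3. Cyp2j9 was at -0.33 (SE 0.31), or 0.04 without that library. In all 5 of these genes null replicate 2 was the highest of the null libraries.

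**Figure D3:**
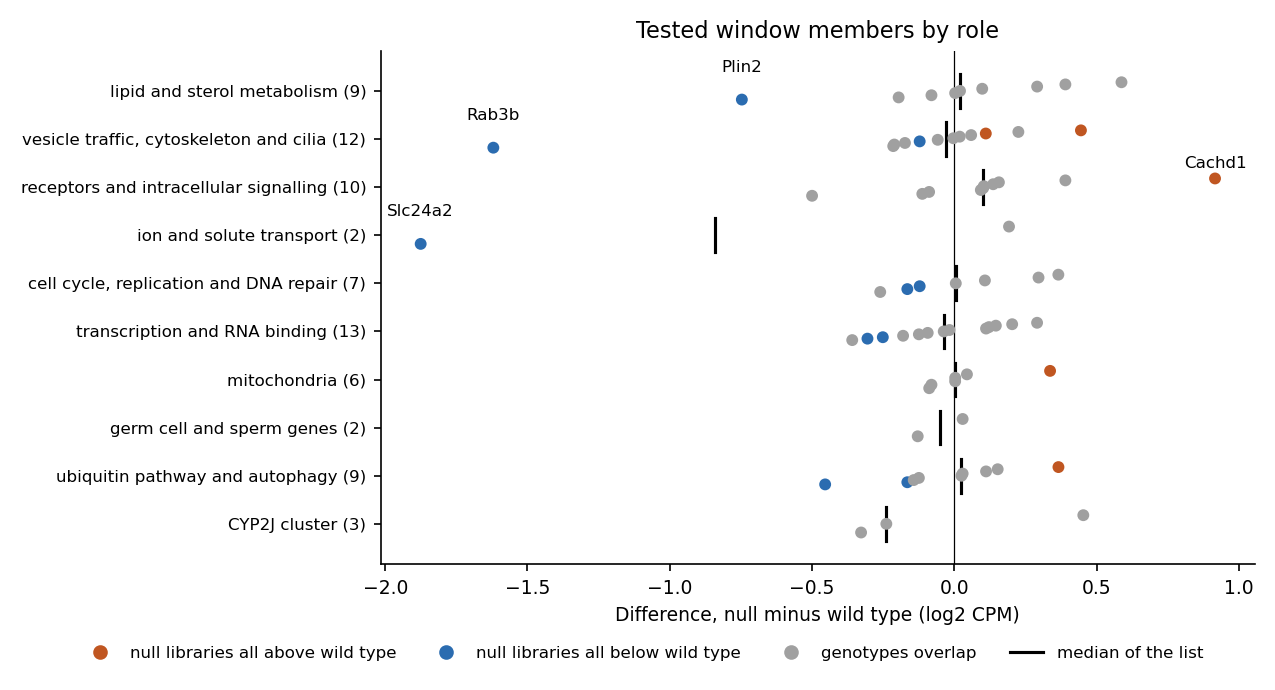
Difference between Dmrt6 null and wild-type testes (log2 CPM) for the tested members of each list, with the number tested in brackets. Points are members, colour marks those whose genotypes do not overlap, the vertical offset within a row only separates points, and the black line is the median of the list. Except for the transport list, with 2 genes, and the CYP2J cluster, with 3, each median lies between -0.05 and 0.10, and Plin2, Rab3b, Slc24a2 and Cachd1 lie away from the other members of their lists.

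Along the chromosome, the neighbours of the leading members differed in size and sign. Around Slc24a2, the differences were -0.17 for Rraga, -0.12 for Haus6, -0.75 for Plin2, -0.00 for Dennd4c, -0.21 for Gm12630, 0.34 for Acer2, -1.88 for Slc24a2 and 0.15 for Mllt3. Around Rab3b, they were -0.31 for Btf3l4, 0.02 for Txndc12, 0.33 for Kti12, -1.62 for Rab3b, -0.34 for Nrd1, 0.02 for Osbpl9 and 0.41 for Calr4. Around Cachd1, they were -0.50 for Ror1, 0.08 for Gm12699, 0.92 for Cachd1, 0.11 for Raver2 and 0.10 for Jak1. Neighbours thus stood on both sides of 0 in each of these stretches.

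The 4 tested members on each side of Dmrtb1 had differences from -0.28 to 0.55. On the side of lower coordinates, Glis1 was described above, Tmem48 was at -0.13, Gm12870 at -0.21 (SE 0.18) and Yipf1, a Golgi membrane protein, at -0.28 (SE 0.15), or -0.14 without wild-type replicate 3. Gm12870 and Yipf1 overlap each other on opposite strands, and in both the genotypes did not overlap. On the side of higher coordinates, Lrp8 and Magoh were described above, Gm12906 was at -0.22 and 0610037L13Rik at -0.16.

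In steps of 5 Mb from 85 Mb, the median difference was -0.09 (16 tested members), -0.13 (15), -0.13 (21), 0.10 (23) and -0.02 (56). The numbers above and below 0 were 6 and 10, 3 and 12, 7 and 14, 15 and 8, and 26 and 30. On the same chromosome, the median was -0.02 over 169 tested genes from 45 to 85 Mb and 0.07 over 613 tested genes from 110 Mb on, with median sizes of 0.138 and 0.183 log2 CPM. The 34 tested members with predicted-gene or RIKEN names had a median of -0.15, with 9 above and 25 below 0. The 97 others had 48 above and 49 below 0. The split of all tested genes with such names was not counted. The median level of these 34 over the 6 libraries was 3.35 log2 CPM, and that of the 97 others was 5.06 log2 CPM.

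At the lower edge of the window, Sh3gl2, which starts at 84851030 and is just outside, was at 0.05 (SE 0.11), and Gm12680, the first gene inside, was below the level filter with 4, 5 and 4 reads in null and 4, 0 and 4 reads in wild-type libraries. The first tested member, Adamtsl1, was at 0.33 (SE 0.32). At the upper edge, Elavl4, the last member, had 32, 51 and 25 reads in null and 48, 45 and 41 reads in wild-type libraries. Just outside, Agbl4 was below the level filter and Gm12807, the first tested gene, was at -0.38 (SE 0.24).

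**Figure D4:**
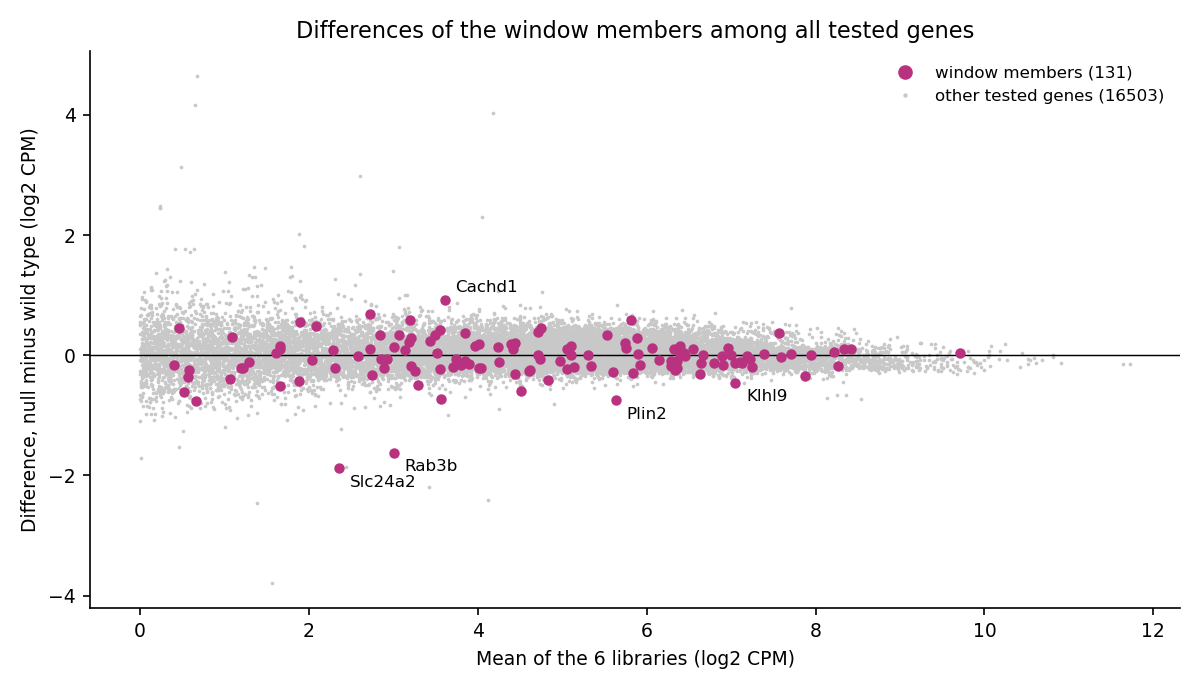
Difference between Dmrt6 null and wild-type testes (log2 CPM, vertical axis) against the mean of the 6 libraries (log2 CPM, horizontal axis) for the 131 tested members (large points) and the other 16503 tested genes (small points). Most members lie within the band of the other genes at the same level, and Slc24a2 (-1.88), Rab3b (-1.62), Plin2 (-0.75), Klhl9 (-0.45) and Cachd1 (0.92) lie near or beyond its edge.

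The other 65 members were below the level filter, with at most 43 reads in any library, and none was at 0 in all 6. Foxd3, a transcription factor of pluripotent and neural crest cells, had 4, 10 and 2 reads in null and 9, 0 and 2 reads in wild-type libraries. The sperm gene 4930579C15Rik, now Eqtn, had 12, 23 and 19 reads in null and 23, 30 and 16 reads in wild-type libraries, and Insl5, an insulin-like hormone, had 2, 0 and 2 reads in null and 3, 2 and 2 reads in wild-type libraries. For 61 of the 65 the genotypes overlapped. All null libraries were below all wild-type libraries for Gm12605, Gm13283 and Tmem61 and above them for Tctex1d1. Tmem61 had 7, 8 and 4 reads in null and 14, 12 and 22 reads in wild-type libraries, and Gm13283 had 0, 0 and 0 reads in null and 9, 4 and 4 reads in wild-type libraries. These 4 members were singled out after their values were seen. The share of such genes among all genes below the level filter was not counted, so nothing is read from these numbers. With no level filter, the limma fit called none of the members at the adjusted threshold. At the unadjusted threshold it called 6 higher and 13 lower ones, when 3.55% of all 22744 genes passed in either direction.

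DMRT6 binding in adult testis was read from the authors' list of 14862 peaks, of which 125 lay in the window. The list comes from 1 ChIP library and 1 input, so no peak has a replicate check, and the scale of its score is not stated. The window held 5.0 peaks per Mb (95% Poisson interval 4.16 to 5.96), against 7.03 (6.58 to 7.50) on the rest of chromosome 4 and 5.94 over all autosomes. Genes of the table were also fewer there, at 8.08 per Mb against 11.0 per Mb on the rest of the chromosome. Per 100 genes the numbers of peaks were 61.9 in the window, 63.8 on the rest of the chromosome and 68.3 over all autosomes. Within the window, peaks were most frequent between 105 and 110 Mb, at 10.2 per Mb, and least frequent between 90 and 95 Mb, at 1.80 per Mb. The intervals cover counting error only.

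A peak within 10 kb of the 5' end was found for 59 of the 196 members (30.1%, exact binomial interval 23.8 to 37.1%), against 27.9% of all genes in the table. Among tested genes the share was 43 of 131 members (32.8%, 24.9 to 41.6%), against 33.2% on the rest of chromosome 4. The share of members with a peak thus did not differ from the table's beyond counting error. The 43 tested members with a peak had a median difference of -0.06, with 17 above and 26 below 0, and the 88 without one had a median of -0.03, with 40 above and 48 below 0.

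The highest-scored peak of the window, 107385463 to 107385797 with a score of 566, lay 28795 bp upstream of Dmrtb1. A peak with a score of 161 lay 66 bp upstream of the 5' end of Dmrtb1 and another, with a score of 291, lay 1164 bp inside the gene. Of the member genes, Haus6 had the highest score near its 5' end, a peak at 86258002 to 86258342 with a score of 562, placed 213 bp upstream. The peak of Calr4, at 108906108 to 108906400 with a score of 507, lay 836 bp upstream. Other high peaks were far from a 5' end. A peak with a score of 552 lay 20611 bp from that of Gm12722, and a peak with a score of 515 lay inside Acot11, a gene of an acyl-CoA thioesterase.

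Rab3b, Slc24a2 and Plin2 had no peak within 10 kb. The nearest one to Rab3b was 31413 bp upstream, the nearest to Slc24a2 was 126134 bp away and the nearest to Plin2 was 57792 bp away. Klhl9 and Cachd1 also had none within 10 kb, with the nearest peak 145960 bp from the 5' end of Klhl9 and 18470 bp inside Cachd1. E130114P18Rik, by contrast, had a peak with a score of 167 placed 2956 bp inside the gene. The same peak lies 2388 bp inside Nfia, nearer to the 5' end of that gene, whose difference was 0.12. Peaks at the 5' ends of other named members had lower scores. They included Gm12737, below the level filter (score 272, 354 bp upstream), Ssbp3 (score 190, 378 bp upstream), Mllt3 (128, 85 bp upstream), Elavl4 (118, 86 bp upstream), Faf1 (111, 81 bp upstream), Usp1 (109, 119 bp upstream), Btf3l4 (108, 34 bp upstream) and Nrd1 (102, 227 bp upstream). Of the 125 peaks, 28 (22.4%) lay within 1 kb of a 5' end, 64 (51.2%) lay inside a gene, and the median score was 88.1, against 94.7 for all peaks. The placement of all peaks was not counted.

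**Figure D5:**
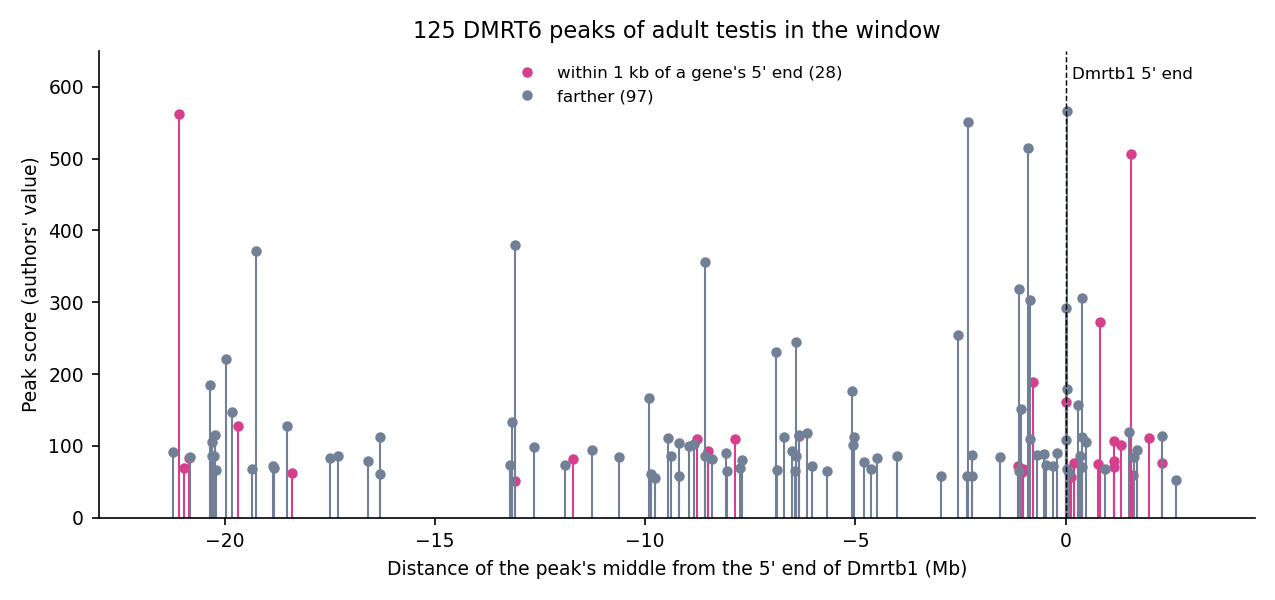
Score of each of the 125 DMRT6 peaks of the window (the authors' value, scale not stated, vertical axis from 0) against the distance of its middle from the 5' end of Dmrtb1 in Mb (horizontal axis). Colour separates the 28 peaks within 1 kb of a gene's 5' end from the 97 others. The tall peaks at the far left and right of Dmrtb1 are those of Haus6 (562) and Calr4 (507), and the tallest, at 566, stands beside Dmrtb1.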

How the data were processed

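Expression values are log2 CPM (read counts scaled to library size, as log2), which the authors deposited for 22744 Ensembl genes, with mm9 coordinates. The submitters' processing notes name STAR 2.3.0e, Bowtie2, Picard and edgeR without roles. Which program counted reads, from which annotation and whether by strand, is not given in the sources used here. The linear value (the antilog of the deposited value) rose in equal steps within a library, and 100% of values came out as whole reads at a tolerance of 0.001. These recovered reads gave the depth, and the count test on them (limma's voom) called 1 gene. The main fit used the deposited log2 CPM. Genes with a mean of at least 0 log2 CPM over the 6 libraries were fitted in limma 3.58.1 (R 4.3.3), with a mean-variance trend and Benjamini-Hochberg adjustment over all 16634 genes. The fit was also run on simulated counts with the same dispersion for all genes and no library apart. That run cannot show how the fit behaves with null replicate 3 as it is. Fold changes are differences of log2 CPM, which understate changes of genes with few reads.

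DMRT6 peaks carry the authors' score, deposited with each of 14862 regions from 1 ChIP and 1 input library. The file name gives MACS 1.4 and removal of duplicate reads. Neither the scale of the score nor the depth of these libraries is stated. Peaks were placed by their middle relative to the outer 5' end of each gene in the expression table. Promoter sequences are from RefSeq (GRCm38.p6), and no coordinate was converted between builds.

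The members, gene lists and marker lists were chosen with earlier results of these data known. Members were named as follows: the 10 of smallest unadjusted p in each direction, up to 4 in each list, 4 on each side of Dmrtb1, up to 8 with the highest-scored peak within 1 kb of the 5' end, and the genes at the edges. Other genes in the text, such as overlapping partners and examples below the level filter, were chosen after their values were seen. The lists for interferon and SKINT genes had 0 genes in the window. Red blood cell markers summed to 717 to 1255 CPM in null and 1477 to 1776 CPM in wild-type libraries, 5 endothelial markers to 144 to 174 CPM in null and 161 to 207 CPM in wild-type libraries, and 5 peritubular and stromal markers to 2296 to 3376 CPM in null and 2806 to 2861 CPM in wild-type libraries. Values of some members are not reported here.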

Additional observations from a re-analysis of the deposited data

How the results depend on the processing

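Alternatives were another level filter or none, quantile normalization, median centring, log2(CPM + 1), array weights, voom on recovered reads, the replicate block and leaving out each library. The count of members at the adjusted threshold was 0 in all of them except array weights (11, of 136 over all genes) and the fit without null replicate 3 (1, Rab3b, of 5 over all genes). Array weights did not converge and gave null replicate 1 a weight of 19.3. With the library left out in turn, the adjusted count ran from 0 to 1, the unadjusted count from 10 to 22, against 17 with all libraries (the 22 came without null replicate 2, when 15.3% of all tested genes passed, against 3.47% with all libraries), and the median difference from -0.07 to -0.03. The unadjusted count was 51 with array weights, when 28.4% of all tested genes passed, and 10 with the replicate block, when 2.12% did. It was 11 without wild-type replicate 1, when 1.61% of all tested genes passed, and 10 without wild-type replicate 3, when 1.47% did. The deviations of same-numbered libraries from their genotype's mean correlated at -0.09, -0.22 and -0.04. With means of 3 libraries, such correlations cannot show whether replicate numbers pair the samples. The labels do not say so either, and the main fit did not pair them. Median centring moved the median difference of the members to -0.10, and that of all genes to -0.04. Over the alternatives, the difference of Rab3b ran from -1.74 to -1.38, of Slc24a2 from -2.04 to -1.55, of Plin2 from -0.83 to -0.62, of Klhl9 from -0.50 to -0.40 and of Cachd1 from 0.76 to 1.00. The adjusted p of Dmrtb1 (limma) ran from 7.7e-05 to 0.289. Of 736 values of 53 named genes, 701 kept their direction and side of the threshold, 17 passed it newly and 18, in 9 genes, changed sign. In 33 of the 53, leaving out 1 library moved the difference by over 1.5 times. Under quantile normalization Mrpl37 was at -0.0012 and Zyg11a at -0.021, and under median centring at -0.0026 and -0.018. With array weights, Cpt2 was at 0.036, Oma1 at 0.046, Zyg11a at -0.088, Cyp2j13 at -0.11, Cyp2j9 at 0.0035, Glis1 at -0.087 and Adamtsl1 at -0.43. With 1 library left out, Sh3gl2 ran from -0.013 (null replicate 1 left out) to 0.13, Zyg11a from -0.17 to 0.18, Cyp2j9 from -0.55 to 0.037, Glis1 from -0.068 to 0.87 and Oma1 from -0.22 to 0.020 (for the last 4, the changed sign came with null replicate 3 left out, and for Oma1 and Zyg11a also with wild-type replicate 3 left out, at 0.013 and -0.092). The cause of these changes was not tested. At a peak score of at least 100, 29 members had a peak within 10 kb (14.8%, against 14.3% of all genes), against 59 at any score. The window then held 2.12 peaks per Mb (1.59 to 2.77), against 3.415 on the rest of chromosome 4 and 2.76 over all autosomes. Per 100 genes, the numbers of such peaks were 26.2 in the window, 31.0 on the rest of chromosome 4 and 31.8 over all autosomes. A peak of any score within 50 kb was found for 111 members (56.6%, against 61.7% of all genes). With 3 libraries a genotype, and 1 null library apart, differences near the median SE of 0.160 log2 CPM cannot be told from the spread between libraries.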
